A study of Mus musculus with 12 samples.

Results

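Iron handling in interscapular brown adipose tissue (BAT) was followed here through 10 transcripts, *Tfrc*, *Slc11a2*, *Steap3*, *Steap4*, *Fth1*, *Ftl1*, *Slc40a1*, *Ireb2*, *Aco1* and *Fbxl5*, of the 25124 genes listed for the tissue. The 10 genes were taken by symbol and were chosen by their place in iron uptake, storage, export and sensing, and the group was proposed because *Tfrc* had the largest positive difference between genotypes at RT. RNA-seq was made from 12 male mice at 10 weeks of age, 3 in each of 4 groups: WT and *Txnip*-/- mice kept at room temperature (RT, 23 °C), and WT and *Txnip*-/- mice acclimated to thermoneutrality (TN, 30 °C), for 1 week. All mice carried a C57B/6J background, and the *Txnip*-/- mice lacked Txnip, a thioredoxin-binding arrestin that restrains glucose uptake. The labels number the replicates without naming animals, so each library was taken as 1 mouse and the p-values measure the spread between these libraries. All levels are given in TPM, which scale the reads of a transcript by its length and by the size of the library, and differences are log2 fold changes of TPM + 1, a scale that understates the change of genes with few transcripts. Where 4 values follow each other without further label, they are those of WT and *Txnip*-/- BAT at RT, then of WT and *Txnip*-/- BAT at TN.

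Cells take up iron mostly as transferrin, which binds the transferrin receptor Tfrc at the surface. The metal is released in endosomes, where the ferrireductases Steap3 and Steap4 reduce it and the carrier Slc11a2 (DMT1) passes it to the cytosol. Iron that is not used is stored inside ferritin, a shell of heavy (Fth1) and light (Ftl1) chains, or leaves through ferroportin (Slc40a1). Brown adipocytes are rich in mitochondria, whose respiratory chain needs iron for heme and iron-sulfur clusters. The iron regulatory proteins IRP1 (*Aco1*) and IRP2 (*Ireb2*) bind hairpins called iron-responsive elements when iron is scarce. Binding in the 3′ UTR of *Tfrc* stabilises the transcript, whereas binding in the 5′ UTR of *Fth1*, *Ftl1* and *Slc40a1* blocks translation, a step that transcript levels do not report. Fbxl5 senses iron and marks IRP2 for degradation.

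The hairpins of the counted transcripts are shown because they are what places *Tfrc* and the ferritins under the same sensors. They were searched in GENCODE vM21 transcripts (GRCm38, the same build as mm10) as an unpaired C, a stem of 5 pairs and a loop of 6 bases spelled CAGTGN. Such an element lay in 376 of 24497 listed genes with a GENCODE transcript (1.53%), and only 5 genes held at least 2 in 1 transcript. Of the 10 genes, 4 held it. Capitals mark the unpaired C and the loop, and the sequences are written 5′ to 3′ on the strand of the transcript.
Tfrc 3′ UTR, element 1, chr16:32631220-32631246, plus strand: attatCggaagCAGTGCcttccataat
Tfrc 3′ UTR, element 2, chr16:32631599-32631625, plus strand: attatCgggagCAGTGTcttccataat
Tfrc 3′ UTR, element 3, chr16:32631664-32631690, plus strand: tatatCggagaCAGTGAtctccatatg
Tfrc 3′ UTR, element 4, chr16:32631711-32631737, plus strand: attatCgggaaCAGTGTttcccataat
Fth1 5′ UTR, chr19:9982733-9982759, plus strand: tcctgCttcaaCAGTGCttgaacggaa
Ftl1 5′ UTR, chr7:45459780-45459806, minus strand: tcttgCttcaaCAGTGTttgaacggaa
Slc40a1 5′ UTR, chr1:45925466-45925492, minus strand: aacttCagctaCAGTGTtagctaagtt
*Tfrc* thus held 4 of the elements with this loop and the 5′ UTR genes 1 each, while no match lay in *Slc11a2*, *Ireb2*, *Aco1*, *Fbxl5*, *Steap3* or *Steap4*. A missing match says only that these letters are absent from those transcripts. The search also found no match in *Epas1*, *Cdc42bpa* or *Cdc14a*, which are known for such an element. It therefore misses known elements and cannot show that a gene has none.

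The depth of the libraries lay between 29.93 and 47.44 times 1000000 reads. *Txnip* fell in *Txnip*-/- BAT from 613 ± 70.8 to 29.0 ± 5.59 TPM at RT and from 1131 ± 92.7 to 11.98 ± 2.12 TPM at TN (mean ± SD, n = 3), as the labels say. Brown adipocyte markers (9 genes) were present in every group, none of them at 0, and summed to 21953–26646 TPM at RT and 16503–19398 TPM at TN, without overlap. Transcripts of other cell types moved with the groups. Macrophage markers (9 genes) summed to 74.6–87.4 TPM in WT and 130–213 TPM in *Txnip*-/- BAT at RT, and to 165–303 and 510–726 TPM at TN. Skeletal muscle markers (5 genes) summed to 3.74–4.11 TPM in RT WT but 14.8–36.2 in RT *Txnip*-/-, and within TN the highest sums were in WT replicate 2 (15.7 TPM) and *Txnip*-/- replicate 2 (12.8 TPM). Fibroblast markers (4 genes) summed to 133–168, 161–187, 211–283 and 438–453 TPM. In bulk tissue, a change in the number of cells of a type and a change in RNA per cell cannot be told apart.

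**Figure D1:**
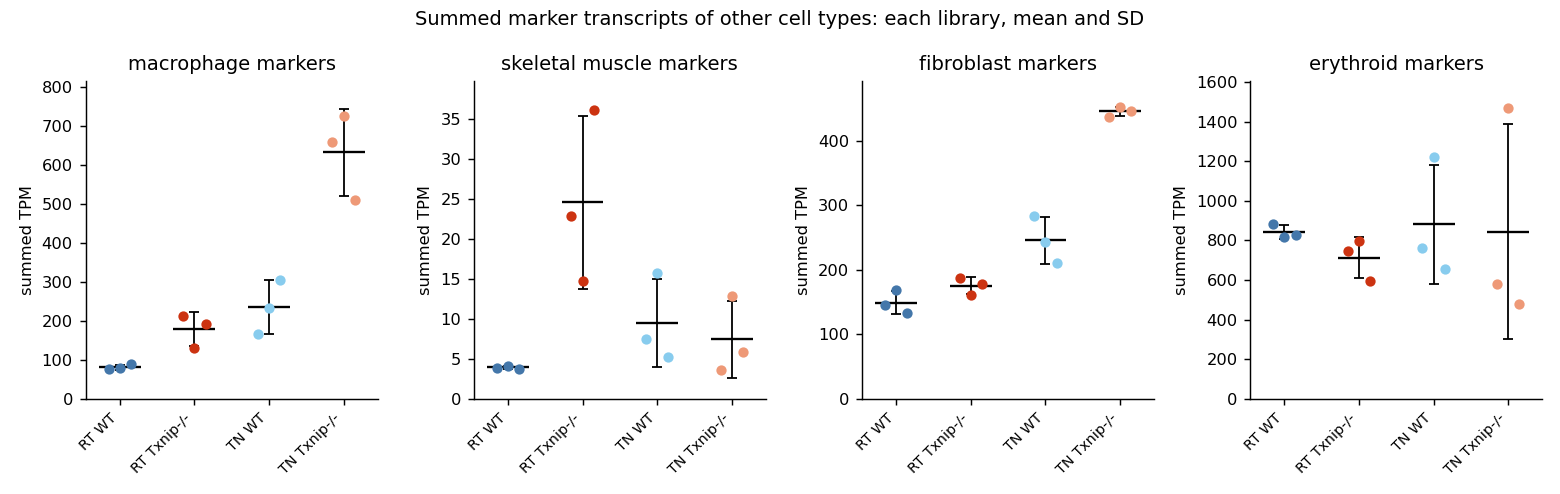
Summed TPM of macrophage, skeletal muscle, fibroblast and erythroid marker genes in each of the 12 libraries (points), with the mean (line) and SD (bar) of 3 libraries per group. The 3 RT Txnip-/- libraries hold more muscle transcripts (14.8–36.2 TPM) than the RT WT libraries (3.74–4.11 TPM), and macrophage sums are highest in TN Txnip-/- (510–726 TPM).

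*Tfrc* (chromosome 16, 32608896 to 32632794, plus strand), the receptor itself, was low in RT WT BAT, at 22.6, 16.9 and 9.42 TPM in replicates 1 to 3. In RT *Txnip*-/- BAT it stood at 94.4, 121 and 99.6 TPM. The groups lay far apart, 16.3 ± 6.603 against 105 ± 14.0 TPM, a ratio of 6.44. The log2 fold change of TPM + 1 was 2.69 (95% interval 2.05 to 3.32), on that scale the largest of the 11980 genes tested at RT. By the ratio of mean TPM, low genes such as the muscle marker *Ckm* (0.08 to 6.16 TPM), named after its values were seen, differed more. The *Tfrc* value is given without a test because it chose the group, and its interval does not allow for that choice. With the log2-scale values that the authors deposited, the difference was 1.80. At TN, *Tfrc* was 56.3, 38.7 and 54.9 TPM in WT and 46.4, 70.0 and 74.0 TPM in *Txnip*-/- BAT. These groups overlapped, and their means, 49.96 ± 9.76 and 63.5 ± 14.9 TPM, did not pass the test of the genotypes (log2 fold change 0.33 ± 0.20 SE, 95% interval −0.13 to 0.79, adjusted p = 0.353 with limma). By mean level RT WT came lowest, then both TN groups, which overlapped, and RT *Txnip*-/- highest, and the neighbours other than the TN groups did not overlap.

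Markers of other cells that could carry *Tfrc* were set beside these values. In RT *Txnip*-/- BAT, 4 of the 5 muscle markers were called higher than in RT WT. The other, *Mb*, named here after its values were seen, lay lower without overlap, at 1.61–2.14 against 3.19–3.34 TPM (log2 fold change −0.54, adjusted p = 0.0624). The library with the lowest muscle sum of that group (replicate 2, 14.8 TPM) had the highest *Tfrc* level. Erythroid markers (8 genes), a lineage that takes up much iron through Tfrc, summed to 815–881 TPM in RT WT and 597–796 TPM in RT *Txnip*-/-. Of the 5 tested, limma called 0, and 2 stood at an unadjusted p under 0.05, as did 1921 of all 11980 genes. Markers of dividing cells (6 genes) summed to 3.24–3.66, 3.42–4.81, 6.19–8.47 and 10.99–12.4 TPM. The part of the muscle transcripts in the RT difference was not tested. Without both TN libraries richest in muscle transcripts, a choice made after seeing the data, the TN log2 fold change of *Tfrc* was 0.08 (adjusted p = 0.901). The same libraries also held the most erythroid transcripts of their groups, 1223 TPM in WT and 1472 TPM in *Txnip*-/- BAT, against 658–763 and 481–581 TPM in the other TN libraries.

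**Figure D2:**
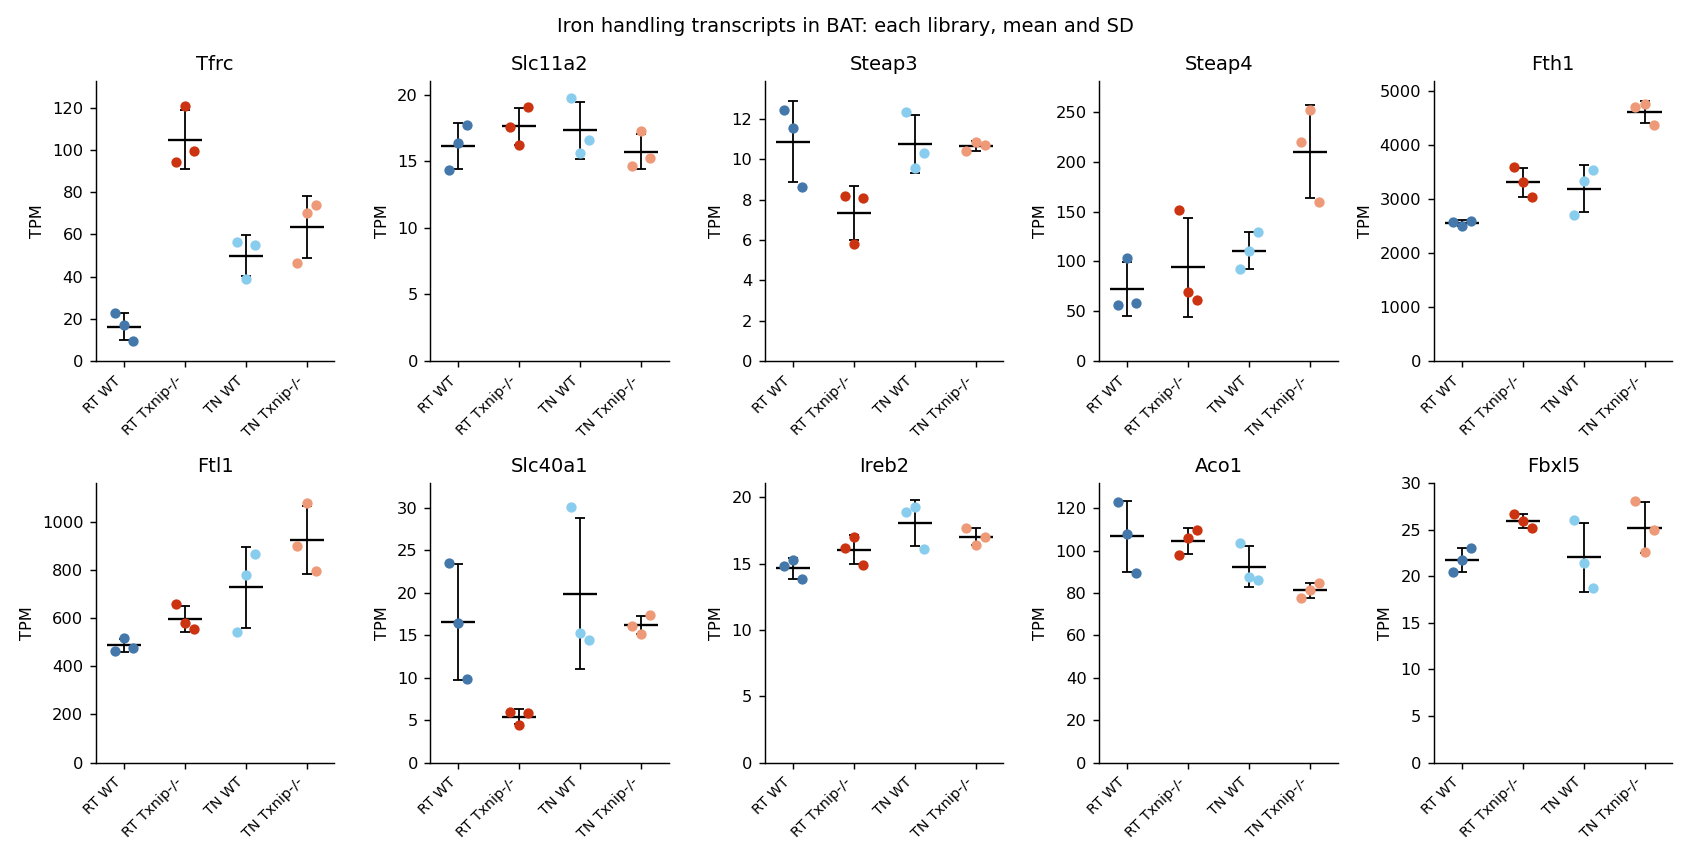
TPM of the 10 iron handling genes in each library (points) by group, with the mean (line) and SD (bar) of 3 libraries; every vertical axis starts at 0. Tfrc is lowest in RT WT (9.42–22.6 TPM) and highest in RT Txnip-/- (94.4–121 TPM), Slc40a1 is lowest in RT Txnip-/- (4.46–5.97 TPM), and Fth1 and Steap4 are highest in TN Txnip-/-.

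The carrier and the reductases of the endosome are given next. *Slc11a2* (chromosome 15, 100387900 to 100423055), which moves iron out of the endosome, had group means of 16.2 ± 1.73, 17.6 ± 1.40, 17.3 ± 2.17 and 15.7 ± 1.35 TPM. All 4 groups overlapped, and the TN genotype difference was −0.13 (interval −0.36 to 0.11, adjusted p = 0.494). *Steap3* (chromosome 1, 120226416 to 120265280), the endosomal reductase of red cell precursors, read 12.4, 11.5 and 8.60 TPM in RT WT and 8.17, 5.81 and 8.05 TPM in RT *Txnip*-/-. Here the groups did not overlap and the mutant level was lower, with a log2 fold change of −0.51 (interval −0.89 to −0.12). At TN the difference was −0.005 (interval −0.23 to 0.22, adjusted p = 0.983).

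*Steap4* (chromosome 5, 7960472 to 7982213), a reductase of adipocytes and inflamed tissue, rose in *Txnip*-/- BAT at TN. Its levels were 92.4, 111 and 130 TPM in TN WT and 220, 252 and 159 TPM in TN *Txnip*-/-, with no overlap. The log2 fold change was 0.91 ± 0.18 (SE), with an adjusted p of 0.0217. At RT 1 library of each group stood above the other two, and the values, 55.7, 104 and 58.2 TPM in WT and 151, 69.3 and 61.6 TPM in *Txnip*-/- BAT, overlapped. The TN call did not hold when WT replicate 1 (adjusted p = 0.0578), WT replicate 2 (0.0564), *Txnip*-/- replicate 1 (0.079) or *Txnip*-/- replicate 2 (0.0653) was left out, although the log2 fold change then stayed between 0.76 and 0.91. It was also lost in a fit of all 12 libraries (adjusted p = 0.0987) and without the filter on low genes (0.06), and over the 15 alternatives the adjusted p ran from 0.0107 to 0.129.

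*Fth1* (chromosome 19, 9982646 to 9985111), the ferritin heavy chain, was the most abundant of the 10 transcripts in every group. At TN it rose from 2698, 3336 and 3537 TPM in WT to 4705, 4758 and 4373 TPM in *Txnip*-/- BAT. The 2 groups did not overlap (3190 ± 438 and 4612 ± 209 TPM), and the log2 fold change was 0.54 ± 0.12 (SE), with an adjusted p of 0.0289. At RT the levels were 2569, 2501 and 2594 TPM in WT and 3583, 3308 and 3041 TPM in *Txnip*-/-. The mutant libraries again lay above all WT libraries, and the RT log2 fold change was 0.37 (interval 0.21 to 0.53). The TN call was lost without WT replicate 2 (adjusted p = 0.0559), *Txnip*-/- replicate 1 (0.104) or *Txnip*-/- replicate 2 (0.102), and without the filter on low genes (0.206), and over the 15 alternatives the adjusted p ran from 0.00457 to 0.206.

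*Ftl1* (chromosome 7, 45457944 to 45459886), the light chain, lay in the same direction at lower levels. It read 465, 520 and 478 TPM in RT WT and 660, 580 and 555 TPM in RT *Txnip*-/-, without overlap, for a log2 fold change of 0.29 (interval 0.11 to 0.48). At TN the values of 541, 780 and 867 TPM in WT and 902, 1078 and 798 TPM in *Txnip*-/- BAT overlapped, and the difference of 0.36 ± 0.18 (SE) did not pass the test (adjusted p = 0.266). The ratio of *Fth1* to *Ftl1* TPM stayed between 4.08 and 5.70 in the 12 libraries. Reads of either gene may be shared with their processed copies, of which GENCODE names 2 for each chain, and *Ftl1* exons overlap a small gene on the same strand (*Gm22133*), so these levels are uncertain to that extent.

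Macrophages, which store and recycle iron, varied beside the ferritins and *Steap4*. At TN all 9 macrophage markers were called higher in *Txnip*-/- BAT (median log2 fold change 1.32), as were 4 of 4 fibroblast markers, against 4 of 9 and 0 of 4 at RT (at an unadjusted p under 0.05, 8 of 9 and 2 of 4). Of all genes, 1921 of 11980 stood under that p at RT. Of the 9 brown adipocyte markers 3 were called lower in TN *Txnip*-/- BAT, *Ucp1* (−1.72), *Cidea* (−0.53) and *Dio2* (−0.98), named here after their values were seen. Within TN WT and within TN *Txnip*-/- BAT the 3 libraries had the same order by macrophage sum, *Fth1*, *Ftl1* and *Steap4*. Within both RT groups the orders differed. The part of any of these cells in the rises of *Fth1* and *Steap4* was not tested.

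*Slc40a1* (chromosome 1, 45908070 to 45925594), the sole known exporter of iron from cells, was low in RT *Txnip*-/- BAT. It read 23.5, 16.5 and 9.78 TPM in RT WT and 5.97, 4.46 and 5.80 TPM in RT *Txnip*-/-. The groups did not overlap (16.6 ± 6.84 and 5.41 ± 0.83 TPM), and the log2 fold change was −1.38 (interval −2.03 to −0.74). Macrophage sums, which mark cells with much ferroportin, were higher in the same mutant libraries. The part of any cell type in the RT level of *Slc40a1* was not tested. At TN the levels were 30.1, 15.2 and 14.4 TPM in WT and 16.1, 15.1 and 17.3 TPM in *Txnip*-/- BAT, which overlapped, and the log2 fold change was −0.20 (interval −0.76 to 0.36, adjusted p = 0.661). TN WT replicate 1 stood apart, and without it the difference was 0.12 (adjusted p = 0.448).

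None of the sensors was called by genotype at TN. *Ireb2* (chromosome 9, 54863755 to 54912534), coding for IRP2, had means of 14.6 ± 0.77, 16.03 ± 1.10, 18.1 ± 1.73 and 17.03 ± 0.64 TPM, and its TN genotype difference was −0.08 (interval −0.27 to 0.12, adjusted p = 0.625). *Aco1* (chromosome 4, 40143265 to 40199009), which codes for IRP1 and, with its iron-sulfur cluster in place, a cytosolic aconitase, had means of 107 ± 16.7, 104 ± 6.10, 92.4 ± 9.80 and 81.2 ± 3.61 TPM. The 3 TN *Txnip*-/- libraries lay below the 3 TN WT libraries, but the difference of −0.18 (interval −0.38 to 0.02) did not pass the test (adjusted p = 0.238). *Fbxl5* (chromosome 5, 43744618 to 43782149), the iron-sensing adaptor, read 20.4, 21.7 and 23.0 TPM in RT WT and 26.7, 26.0 and 25.1 TPM in RT *Txnip*-/-, apart by 0.25 on the log2 scale (interval 0.09 to 0.41). At TN its groups overlapped at 22.05 ± 3.69 and 25.2 ± 2.78 TPM (log2 fold change 0.19, interval −0.10 to 0.49, adjusted p = 0.395). *Fbxl5* exons overlap *Bst1* on the opposite strand, and *Slc11a2* exons *Gm5475*, and whether the counting used strand was not stated.

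**Figure D3:**
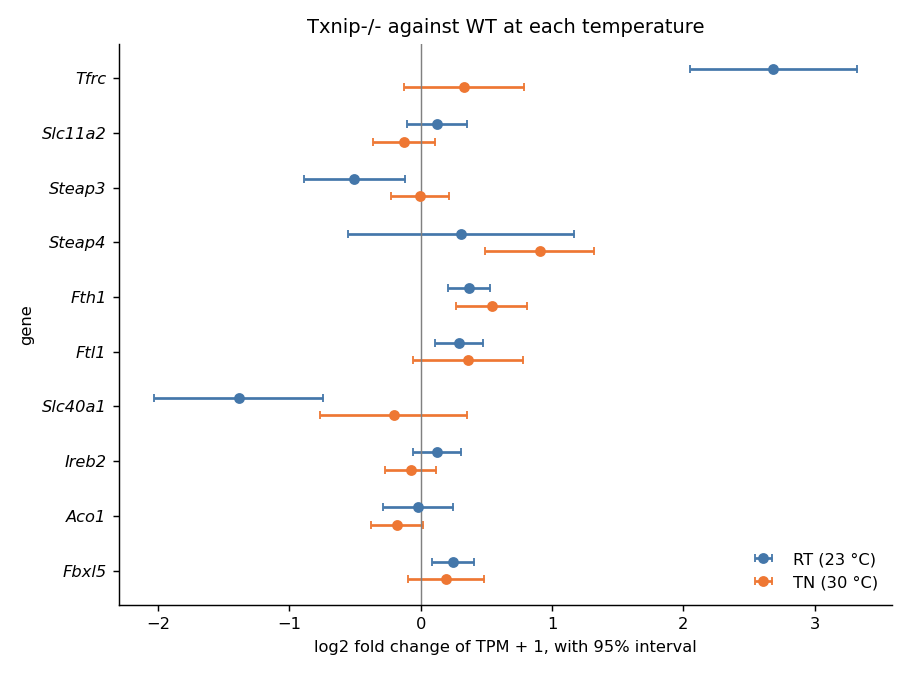
Log2 fold change of TPM + 1 in Txnip-/- against WT BAT for the 10 genes at RT (blue) and TN (orange), with 95% intervals from limma on the 6 libraries of each temperature. At RT the point of Tfrc lies highest and that of Slc40a1 lowest, as a description only, because the RT values chose the group. At TN the intervals of Fth1 and Steap4 lie above 0 and those of Tfrc and Slc40a1 include it.

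Counted together, 2 of the 10 genes (*Fth1* and *Steap4*) were called higher in *Txnip*-/- BAT at TN and 0 lower, beside 6.49% called higher and 2.17% called lower among the 12891 genes tested. Calls needed a log2 fold change beyond 0.32 in either direction, the size the study used, and an adjusted p under 0.05. The median log2 fold change of the 10 was 0.09, against 0.01 over all genes tested. At RT, the contrast that the choice of genes used, 1 (*Tfrc*) was past these thresholds upward and 0 downward, where 0.760% of 11980 genes were called higher and 0.726% lower, a count that the choice of *Tfrc* fixed and from which nothing is read. Set side by side, RT *Txnip*-/- BAT held more *Tfrc*, *Fth1*, *Ftl1* and *Fbxl5* and less *Slc40a1* and *Steap3* than RT WT in every library, and overlapping amounts of *Slc11a2*, *Ireb2*, *Aco1* and *Steap4*. The share of all genes whose RT groups do not overlap was not computed, and these RT libraries chose the group. No pattern is therefore read from this list.

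The step from RT to TN was then compared within each genotype, all 12 libraries in 1 fit. The median of all 12486 genes tested lay at 0.18 (WT) and 0.15 (*Txnip*-/-) on the log2 scale, so values are to be read against this shift. Of the genes called, 83.1% were higher at TN in WT and 78.9% in *Txnip*-/- BAT, but 51.1% and 48.5% once each library was centred on its median. *Tfrc* libraries moved in opposite directions. All 3 TN WT libraries (38.7–56.3 TPM) lay above all RT WT libraries (9.42–22.6 TPM), a log2 fold change of 1.62 (interval 1.03 to 2.21). All 3 TN *Txnip*-/- libraries (46.4–74.0 TPM) lay below the RT *Txnip*-/- libraries (94.4–121 TPM), a log2 fold change of −0.74 (interval −1.32 to −0.15). With median centring the values were 1.44 and −0.93. They share the RT libraries that chose the gene and have no test. Sums of markers of dividing cells, given above, were higher at TN in both genotypes.

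Of the 9 genes other than *Tfrc*, 1 was called higher at TN in WT (*Ftl1*) and 0 lower, beside 31.4% and 6.39% of all genes. At an unadjusted p under 0.05 stood 3 of the 9, beside 7110 of all 12486 genes. The log2 fold change of *Ftl1* was 0.55 ± 0.16 (SE, adjusted p = 0.0124), which fell to 0.37 with median centring (adjusted p = 0.0738) and was not called without TN WT replicate 3 (adjusted p = 0.0515). *Fth1* differed by 0.31 (adjusted p = 0.0195) and *Ireb2* by 0.28 (adjusted p = 0.0121), both under the fold threshold. *Fth1* was called without RT WT replicate 3 (adjusted p = 0.0425) or TN WT replicate 1 (0.00176), *Ireb2* without TN WT replicate 3 (0.00417) and *Steap4* without RT WT replicate 2 (0.038). *Aco1* lay at −0.20 (adjusted p = 0.141) and was called with median centring, at −0.38 (adjusted p = 0.0132).

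In *Txnip*-/- BAT, 5 of the same 9 genes were called higher at TN (*Slc40a1*, *Steap4*, *Ftl1*, *Fth1*, *Steap3*) and 1 lower (*Aco1*), beside 30.9% and 8.27% of all genes. *Slc40a1* rose most, from 5.41 ± 0.83 to 16.2 ± 1.10 TPM (log2 fold change 1.43 ± 0.29 SE, adjusted p = 0.0018), and median centring left 1.24 (adjusted p = 0.00376). *Steap4* rose by 1.247 (adjusted p = 0.00741), *Ftl1* by 0.62 (adjusted p = 0.00623) and *Fth1* by 0.48 (adjusted p = 0.00166). With median centring *Steap4* (1.06) and *Ftl1* (0.43) were still called, whereas *Fth1* (0.29, adjusted p = 0.0291) came under the fold threshold. *Steap3* rose by 0.49 (adjusted p = 0.0131), but not with median centring (0.31, adjusted p = 0.0751) or without RT *Txnip*-/- replicate 2 (adjusted p = 0.0602). *Aco1* fell by 0.36 (adjusted p = 0.015), a call lost without RT replicate 3 (adjusted p = 0.0532) or TN replicate 1 (0.054), and under median centring *Slc11a2* was called lower too (−0.34, adjusted p = 0.0209). Macrophage markers were called higher at TN in 8 of 9 cases in WT and 9 of 9 in *Txnip*-/-, fibroblast markers in 4 of 4 in both. Endothelial markers were called higher in 4 and 5 of 5, markers of dividing cells in 3 of 3 tested in both genotypes and lymphocyte markers in 1 and 2 of 2 tested, while in *Txnip*-/- BAT 4 of 5 muscle markers and 5 of 9 brown adipocyte markers were called lower (0 of 5 and 3 of 9 in WT). The muscle marker *Mb* was called higher at TN in both genotypes (0.61 in WT, 0.60 in *Txnip*-/-) and the adipocyte marker *Pparg* in WT (0.56), both named after their values were seen. The part of these cells in the temperature values was not tested.

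**Figure D4:**
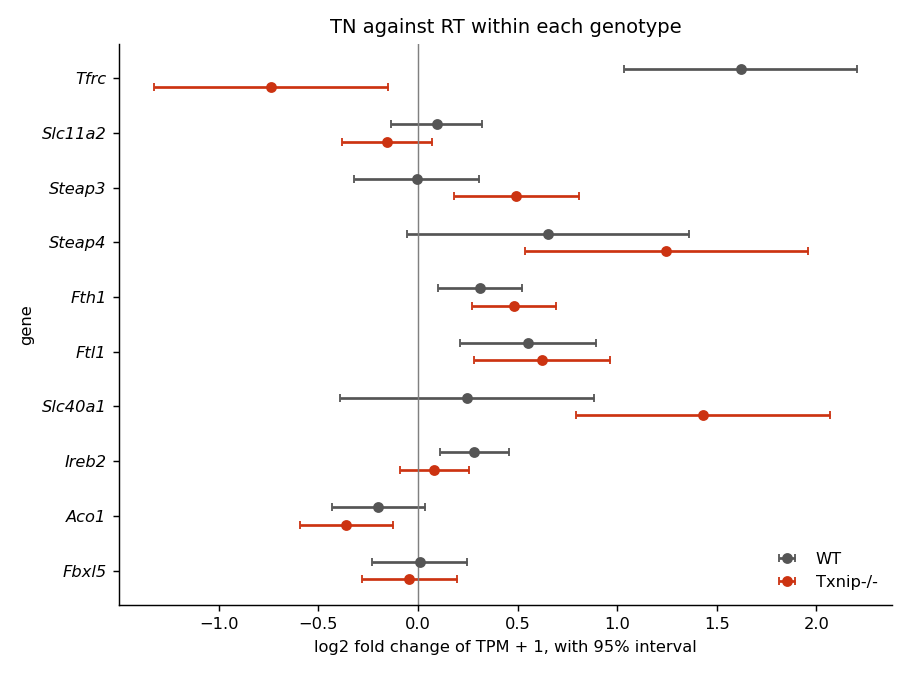
Log2 fold change of TPM + 1 at TN against RT within WT (grey) and within Txnip-/- (red) for the 10 genes, with 95% intervals from limma on all 12 libraries. Tfrc lies above 0 in WT and below 0 in Txnip-/-, and Slc40a1 lies at 0.25 in WT and 1.43 in Txnip-/-.

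How far the genotype difference itself differed between temperatures was computed as the interaction of genotype and temperature. Of all genes tested, limma called 0.00801% (only *Txnip*). Among the 10 genes the widest estimates were −2.36 for *Tfrc* (95% interval −3.19 to −1.53), 1.18 for *Slc40a1* (0.28 to 2.08) and 0.60 for *Steap4* (−0.41 to 1.60). They are given as a description with no test, since the RT values that chose the group enter them.

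Other genes of iron metabolism, and targets of hypoxia-inducible factors as 1 list, were counted in 8 lists of 83 genes. Of these genes, 72 could be tested in either comparison of genotypes. At RT 2 were called higher and 1 lower, and at TN 6 higher and 2 lower, with medians of −0.01 and −0.06. The TN shares, 8.33% higher and 2.78% lower, were near the 6.49% and 2.17% of all genes, and the RT shares were 2.78% and 1.39% beside 0.760% and 0.726%. The hypoxia list gave 1 of the higher calls at RT, and 2 of the higher and the 2 lower calls at TN. *Tfr2*, a second transferrin receptor, lay opposite to *Tfrc*: it fell at RT from 3.19 ± 0.56 TPM in WT to 0.63 ± 0.13 TPM in *Txnip*-/- BAT (log2 fold change −1.36, adjusted p = 0.0123, and 0.0512 without RT WT replicate 2). Over the alternatives this difference ran from −2.17 to −0.84. At TN *Tfr2* stood at 1.247 ± 0.34 and 0.58 ± 0.15 TPM, under the level tested. As a description, the ratio of *Tfrc* to *Tfr2* TPM was 2.52 to 7.0 in WT and 133 to 194 in *Txnip*-/- libraries at RT, and 23.8 to 58.2 and 99.3 to 117 at TN, where the *Txnip*-/- ratios rest on *Tfr2* levels under 1 TPM at both temperatures. *Trf*, the transferrin gene itself, rose at TN from 33.3 ± 2.11 to 53.7 ± 0.51 TPM (0.67, adjusted p = 0.00302). *Slc11a1*, an iron carrier of macrophage phagosomes, rose from 3.801 ± 1.09 to 9.54 ± 1.97 TPM (1.15, adjusted p = 0.0129). *Slc39a14*, which imports iron that is not bound to transferrin, rose by 0.38 (adjusted p = 0.0385), but the call held in only 4 of 15 alternatives and in none that left out a library.

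*Cp*, coding for ceruloplasmin, a ferroxidase that works with ferroportin, was called higher in *Txnip*-/- BAT at both temperatures. It went from 6.64 ± 0.35 to 10.0 ± 0.25 TPM at RT (0.53, adjusted p = 0.0261) and from 9.41 ± 0.76 to 16.3 ± 0.81 TPM at TN (0.74, adjusted p = 0.00365). The TN call held in all 15 alternatives and the RT call in 6 of 14, with adjusted p from 0.0668 to 0.107 in 5 of the 6 fits that left out a library. *Heph*, the other ferroxidase tested, was not called in either comparison of genotypes and rose at TN in both genotypes (0.82 in WT, 0.84 in *Txnip*-/-). Exons of *Cp*, *Heph*, *Ndrg1*, *Slc2a1*, *Alas1*, *Flvcr1*, *Slc48a1* and *Mms19* overlap genes on the opposite strand, so their levels carry the uncertainty named for *Fbxl5*, and *Trf* exons overlap *Gm20425* on the same strand.

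The lists of heme and iron-sulfur metabolism showed no gene called by genotype. These were 8 genes of heme synthesis, 8 of heme breakdown and transport and 27 of mitochondrial iron import and iron-sulfur cluster assembly. At an unadjusted p under 0.05 stood 2, 2 and 3 of them at RT and 2, 5 and 6 at TN. Of all genes, 1921 of 11980 at RT and 3306 of 12891 at TN stood under that p. The 27 genes of the last list lay between −0.13 and 0.19 at RT and between −0.34 and 0.27 at TN. *Alas1*, the entry enzyme of heme synthesis, had the widest RT difference in these lists, from 156 ± 29.6 to 262 ± 39.9 TPM (0.755, adjusted p = 0.0679). The 5 other genes known for an iron-responsive element (*Alas2*, *Epas1*, *Cdc42bpa* and *Cdc14a* among them) lay between −0.25 and 0.09 at RT and between −0.21 and −0.13 at TN, and limma called 0 of them at either temperature, with 0 at an unadjusted p under 0.05 too. Of ferritin turnover, 0 of 3 genes were called by genotype (1 at RT and 0 at TN at an unadjusted p under 0.05).

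Targets of hypoxia-inducible factors were included because low iron is known to stabilise these factors. They did not move as 1 group. *Pdk1*, which holds back pyruvate oxidation, rose in *Txnip*-/- BAT at RT (50.6 ± 5.05 to 84.0 ± 6.74 TPM, 0.72, adjusted p = 0.0218) and at TN (47.3 ± 9.74 to 92.3 ± 5.51 TPM, 0.97, adjusted p = 0.00752). The TN call held in all 15 alternatives and the RT call in 9 of 14, not without WT replicate 1 (adjusted p = 0.0535) or 2 (0.102) or *Txnip*-/- replicate 1 (0.0611) or 3 (0.0909). *Ndrg1* rose at TN (0.73, adjusted p = 0.00794), while *Slc2a1*, the basal glucose transporter, fell by 0.755 (adjusted p = 0.00998) and *Egln1*, an oxygen sensor, fell by 0.39 (adjusted p = 0.043, held in 7 of 15 alternatives and lost without WT replicate 1 or 3 or any *Txnip*-/- library, at adjusted p of 0.0704 to 0.134). The remaining 6 tested at TN, *Adm* and *Egln3* among them, were not called.

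**Figure D5:**
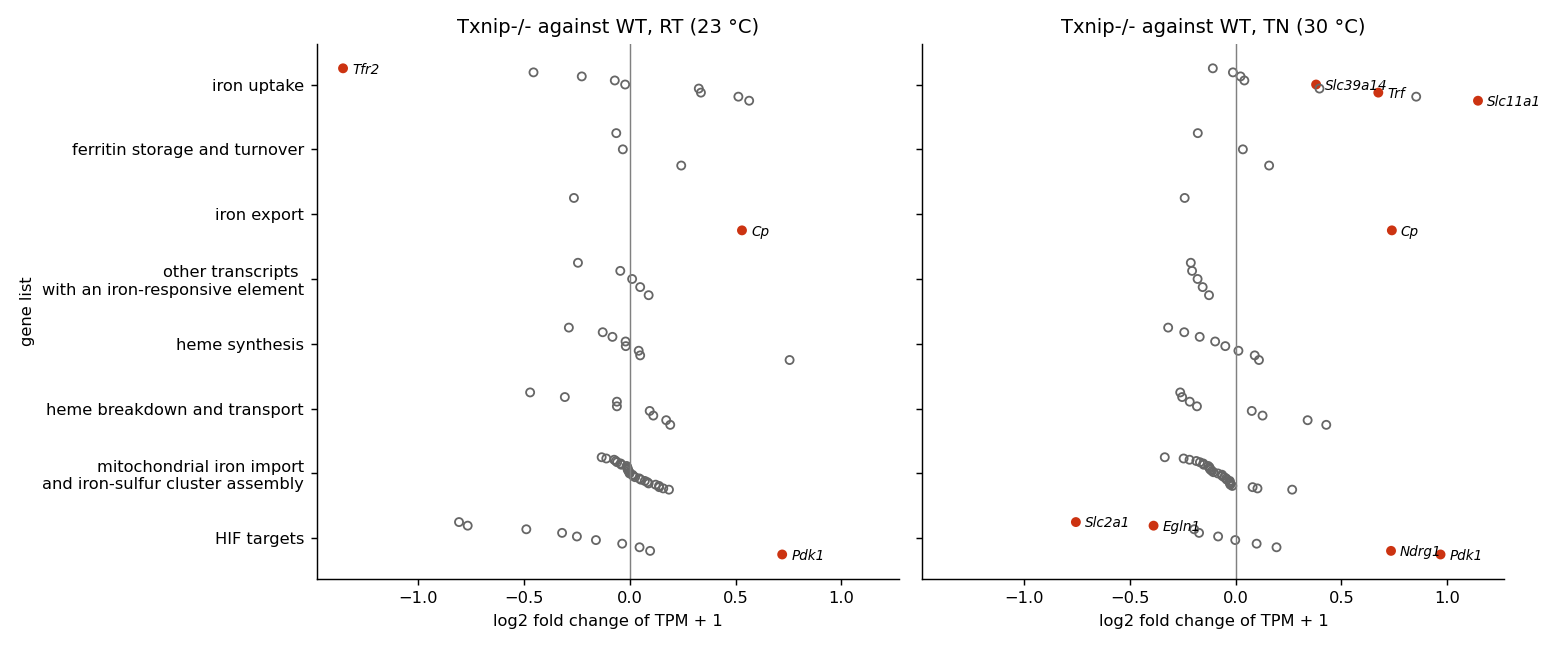
Log2 fold change of TPM + 1 in Txnip-/- against WT BAT for every tested gene of the 8 lists (rows), targets of hypoxia-inducible factors among them, at RT (left) and TN (right). Filled red points are called (log2 fold change beyond 0.32 in either direction and adjusted p under 0.05) and open points are not. Tfr2, Cp and Pdk1 are called at RT and 8 genes at TN, and the heme and iron-sulfur lists hold open points only.

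Across temperature, 15 of 73 tested list genes were called higher at TN and 7 lower in WT, and 15 higher and 8 lower in *Txnip*-/- BAT. Of these the hypoxia list gave 4 higher and 2 lower in WT, and 2 higher and 2 lower in *Txnip*-/- BAT. The share of the list genes called higher, 20.5% in either genotype, lay below the 31.4% and 30.9% of all genes, and the shares called lower were 9.59% and 11.0% beside 6.39% and 8.27%. The median was 0.10 in WT and −0.01 in *Txnip*-/-, under the median of all genes in both. With median centring 23 and 34 list genes were called in all, beside 3767 and 4729 of all 12486 genes. Of the latter, 1926 and 2294 were higher. The list calls were not split by direction there, so the shares above hold for the main scaling only. *Slc11a1* (1.04 in WT, 1.63 in *Txnip*-/-) and *Adm*, a vasodilator peptide gene (1.13 and 1.26), rose in both genotypes, while *Egln3* fell by 1.17 and 0.93. *Alas1* rose by 1.054 in WT (adjusted p = 0.0002) from 156 ± 29.6 to 321 ± 17.9 TPM. In *Txnip*-/- BAT the rise was 0.41 (adjusted p = 0.0254), not called with median centring (0.22, adjusted p = 0.211), upper-quartile scaling (0.0768), or without RT replicate 2 (0.104), RT replicate 3 (0.0746), TN replicate 1 (0.0741) or TN replicate 3 (0.0825). *Hmox1*, which breaks heme down and frees its iron, rose in *Txnip*-/- BAT from 6.04 ± 0.60 to 15.1 ± 2.17 TPM (1.19, adjusted p = 0.000404), as did *Lcn2*, a siderophore binder (1.43, adjusted p = 0.00033), and *Lrp1*, a receptor for heme-hemopexin (0.63, adjusted p = 0.00312). In WT the same genes gave 0.29, 0.29 and 0.14 and were not called. The difference between genotypes was not called for any gene of the lists. At an unadjusted p under 0.05 stood 16 of 73 of them, beside 1571 of all 12486 genes.

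Of the other genes, *Ncoa4*, the receptor that sends ferritin to the lysosome, fell at TN by 0.34 in WT (adjusted p = 0.0252) and by 0.49 in *Txnip*-/- BAT (adjusted p = 0.00392). The WT call was lost without RT replicate 1 (adjusted p = 0.0526) or 2 (0.0884) or TN replicate 2 (0.0772) or 3 (0.078). The iron-sulfur genes split: *Mms19* rose (0.65 in WT, 0.68 in *Txnip*-/-), whereas *Iba57* fell by 0.33 in WT (adjusted p = 0.00468, with −0.29 and −0.28, under the fold threshold, without RT replicate 3 or TN replicate 2) and by 0.54 in *Txnip*-/- BAT (adjusted p = 0.000189). *Hfe* rose by 0.42 in WT (adjusted p = 0.00633, with 0.31 without TN replicate 2) and 0.54 in *Txnip*-/- BAT (adjusted p = 0.00129). The heme exporter *Flvcr1* rose by 0.59 in WT (adjusted p = 0.00744) and 0.60 in *Txnip*-/- BAT (adjusted p = 0.00583), and with median centring neither gene was called in WT (adjusted p of 0.0913 and 0.0564). *Slc48a1*, which moves heme out of lysosomes, rose by 0.46 in *Txnip*-/- BAT (adjusted p = 0.00195), with 0.27 under median centring, below the fold threshold, and lay at 0.31 in WT (adjusted p = 0.0177), also below it. *Uros* of heme synthesis fell by 0.46 in WT (adjusted p = 0.0183, and 0.0661 without RT replicate 3 or 0.0739 without TN replicate 1) and by 0.495 in *Txnip*-/- BAT (adjusted p = 0.0125, and 0.0515 without TN replicate 1). In WT the collagen hydroxylase gene *P4ha1* fell by 1.45 (adjusted p = 0.0152) from an RT group that spread from 11.2 to 60.0 TPM, a call lost without RT replicate 2 (adjusted p = 0.0507) or 3 (0.0545).

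Among the genes most like *Tfrc* over the 12 libraries, of 8902 genes that averaged 5 TPM or more, were *Ado* (Pearson r = 0.90), *Klhdc2* (0.86), *C1d* (0.85) and *Snu13* (0.85). These are descriptions over libraries that share 4 groups, and they carry no p. Their range was narrow beside that of *Tfrc*: *Ado*, a thiol dioxygenase, had means of 8.68 ± 0.28, 10.5 ± 0.60, 9.75 ± 0.49 and 9.96 ± 0.08 TPM, the same order of means as for *Tfrc*. Of the other 9 of the 10 genes, *Fth1* had the highest r with *Tfrc* (0.55), and *Slc40a1* (−0.41) and *Steap3* (−0.42) the lowest.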

How the data were processed

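The members and the gene lists were chosen with earlier results of these data known. Poly-A RNA of BAT was read single-end. According to the authors and the submitters' processing notes, reads were aligned to mm10 with STAR 2.7.5a, counted on exons with HOMER 4.11.1 with 1 transcript kept per gene, and compared with DESeq2. The authors deposited TPM of all 12 libraries, which sum over the listed genes to between 55.38% and 57.55% of the scaling total, and, per temperature, log2-scale values whose transform is not named. For *Fth1* and *Slc11a2* the log2-scale tables count another transcript than the TPM. The 6 columns of the authors' own fold changes and p-values were not used. The counting error of TPM is not known, and how reads with several matches were treated is not given in the sources used here.

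From the TPM, log2(TPM + 1) of genes with a mean of at least 1 was fitted in R 4.3.3 with limma 3.58.1 (trend, Benjamini-Hochberg), on the 6 libraries of a temperature for genotype and on all 12, as 4 group means, for temperature and the interaction. Calls used a log2 fold change beyond 0.32 and an adjusted p under 0.05, and the interaction that p alone. The text names the 10 members, list genes called by genotype, up to 3 more per list with the largest change among those called by temperature, the 5 genes most like *Tfrc*, and *Txnip*. *Alas2*, *Epas1*, *Cdc42bpa* and *Cdc14a* were named after their values were seen, to complete their list. Some genes that the rule gives are not reported here. Elements were searched with Python 3.11.15, and figures drawn with matplotlib 3.10.9. The pipeline was tested on simulated data. Alternatives were a pseudocount of 0.1, other filters and scalings, the replicate number as a block, 1 fit of all libraries, the authors' log2 values and each library left out.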

Additional observations from a re-analysis of the deposited data

Results flagged for a closer look

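*Tfrc* answered temperature in opposite directions in the genotypes: every TN library lay above every RT library in WT and below every RT library in *Txnip*-/- BAT. The difference between both log2 fold changes (TN against RT, *Txnip*-/- minus WT) was −2.36, and it stayed between −2.62 and −2.03 when each library was left out in turn. It is given as a description and no p is read from it, because the RT libraries chose the gene. Whether the genotypes differ here was not tested in libraries that did not choose it.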

How the results depend on the processing

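Counts of genotype calls varied with the libraries and the filter. Leaving out 1 library gave 2 to 159 calls at RT (178 with all), 456 to 1005 at TN (1116 with all) and 1 to 6 for the interaction. Of the 10 genes, 0 to 2 were then called at RT, 0 to 2 at TN and 0 to 1 in the interaction (1 without RT WT replicate 1), whose RT values chose the group, and of the iron lists 0 to 4 at RT. RT without WT replicate 2 gave the fewest calls and left *Tfrc* uncalled, as did leaving out *Txnip*-/- replicate 3. Without a filter on low values there were 44 calls at RT and 621 at TN, with 1 list gene at RT and 0 of the 10 genes at TN. In 1 fit of all 12 libraries RT had 272 calls, with 2 of the 10 genes and 5 list genes, and TN 1 of the 10. The authors' log2 values gave 2 of the 10 at RT. Without both TN libraries richest in muscle transcripts, an alternative added after seeing the data, TN had 130 calls, 0 of the 10 and 3 of the lists, with 2 libraries left per group.

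Same-numbered libraries did not deviate together throughout (r between −0.14 and 0.30). At RT, WT replicates 1 (r = 0.30) and 3 (r = 0.22) correlated best with the *Txnip*-/- library of the same number, but replicate 2 (r = −0.01) did not. The paper speaks of WT littermates, but the labels name no pairs, so the numbers were not used to pair mice. With the replicate number as a block, RT had 100 calls against 178 without it, and TN 1 of the 10 genes (*Steap4*, as *Fth1* had an adjusted p of 0.0762). Several libraries, RT replicate 2 among them, did not correlate best with their own number.

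Of the tested values, direction turned only where there was no call: TN against RT in WT for *Slc11a2* (−0.003 with upper-quartile scaling, −0.089 with median centring) and *Fbxl5* (−0.089 and −0.174), and in *Txnip*-/- for *Ireb2* (−0.106 with median centring). With 1 library left out, the ranges crossed 0 for genotype at TN in *Slc40a1* (−0.386 to 0.122) and *Steap3* (−0.078 to 0.091), for temperature in WT in *Slc40a1* (−0.078 to 0.526), *Fbxl5* (−0.111 to 0.116) and *Steap3* (−0.151 to 0.091), and in *Txnip*-/- in *Fbxl5* (−0.122 to 0.031). Of the values without a test, those of *Aco1* (−0.139 to 0.088) and *Steap4* (−0.09 to 0.594) for genotype at RT and of *Ftl1* (−0.133 to 0.207) and *Fbxl5* (−0.159 to 0.068) in the interaction crossed 0 too. Over all alternatives *Slc11a2* for genotype at RT (−0.017 to 0.189) did so as well. Of 1393 named values under an alternative, 1269 were counted as the same, 99 lost and 6 gained the call, 17 with a test turned direction and 2 moved in size. The same meant an unchanged direction and call or, without a test, a move that was small beside the spread. Values without a test that crossed 0 are therefore among the 1269. The RT difference of *Tfrc* was 1.80 and of *Fth1* 0.22 with the authors' log2 values, in which both lay nearer 0. The cause was not tested. Whether depth limited these values could not be assessed, since TPM give no counts.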
